A study of Mus musculus with 12 samples.

Results

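The proteasome is the protease that degrades ubiquitin-tagged proteins, and its subunits and helper proteins are encoded by the Psma, Psmb, Psmc, Psmd, Psme, Psmf and Psmg genes. All genes of the kidney RNA table whose symbol is one of these letters after Psm followed by a number were taken, which gave 49 of 55471 genes. They comprised 7 alpha subunits of the ring of the 20S core, 4 non-catalytic and 3 catalytic beta subunits of the constitutive core, 3 catalytic beta subunits of the immunoproteasome, 6 ATPase and 11 non-ATPase subunits of the 19S cap, 3 genes of the interferon-inducible activator PA28, 2 genes of other activators, the regulator PI31, 7 assembly chaperones (4 of the core, 3 of the cap), and the testis and thymus subunits Psma8 and Psmb11. The libraries came from left kidneys of C57/BL6 mice, 8 to 12 weeks old, either wild type or knockout for Sprr2f (Sprr2f-KO), a small proline-rich protein gene. Kidneys were collected at day 0 or at day 5 of UUO (unilateral ureteral obstruction): the left ureter is clamped, which stops urine flow from that kidney. There were 2 wild-type libraries at day 0, 3 wild-type libraries at day 5, 4 knockout libraries at day 0 and 3 knockout libraries at day 5. Each library is also called a kidney below. The labels give neither the way the knockout was made, nor whether day 0 kidneys had sham surgery, nor whether the libraries of a group came from separate animals, so p-values measure the spread between these libraries.

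The 20S core is a barrel of alpha and beta rings in which only 3 beta subunits cut peptide bonds: beta5 (Psmb5), beta1 (Psmb6) and beta2 (Psmb7). Interferon gamma induces replacements for each of them, beta5i (Psmb8), beta1i (Psmb9) and beta2i (Psmb10), and a core built with these is the immunoproteasome, which leukocytes hold constitutively and which favours the peptides that class I molecules present. The 19S cap recognises and unfolds ubiquitin-tagged proteins and feeds them to the core, while PA28, PA200 (Psme4) and PI31 (Psmf1) bind the core as alternatives to the cap or as modulators. Genes of the constitutive core and the cap are controlled together through antioxidant-response-element-type sites read by the factor NRF1 (Nfe2l1).

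Each library held between 16567256 and 19398882 reads assigned to genes, which were recovered as whole numbers from the deposited CPM, the reads of a gene per 1000000 reads of its library. Sprr2f had 482, 447 and 1138 reads in the 3 wild-type kidneys at day 5 against 0, 39 and 76 in the 3 knockout kidneys at day 5. At day 0 it had at most 5 reads in any library, so its level does not check the genotype label there. The series is described as one of female mice, but 7 of the 12 libraries held Y-linked transcripts, with a sum over 4 genes between 112 and 170 CPM against 0.281 to 0.979 CPM in the other 5, which held Xist. These 7 were all 4 knockout day 0 libraries and 1 in each of the other groups. Obstruction in knockout thus sets 4 of 4 such libraries at day 0 against 1 of 3 at day 5. Genotype at day 0 sets 1 of 2 in wild type against 4 of 4 in knockout. Obstruction in wild type sets 1 of 2 against 1 of 3, and genotype at day 5 has 1 of 3 on each side. Levels between libraries were compared as scaled CPM, that is CPM divided by a TMM factor. This factor lay between 0.795 and 0.897 at day 0 and between 1.13 and 1.19 at day 5. The share of reads from mitochondrial genes was 8.31% to 9.26% at day 0 and 3.89% to 4.34% at day 5. A gene was called changed at a Benjamini-Hochberg adjusted p under 0.05 in limma, over 18093 tested genes, and 47 of the 49 members were tested.

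The promoters of 5 catalytic and activator genes are shown because the immune and PA28 genes rose with obstruction and the constitutive counterparts Psmb5 and Psmb6 had no called rise. They run from 250 bases before to 50 after the RefSeq start site on GRCm38.p6, 5′ to 3′ on the gene's strand. Those of Psmb8 (chr17:34197945-34198244, plus strand), Psmb9 (chr17:34187281-34187580, minus strand) and Psme1 (chr14:55578244-55578543, plus strand) belong to genes that rose. Those of Psmb5 (chr14:54617946-54618245, minus strand) and Psmb6 (chr11:70525107-70525406, plus strand) belong to constitutive catalytic subunits. Capitals mark matches, on either strand, to an antioxidant response element core (TGACNNNGC), an interferon-stimulated response element core (GAAA, any 2 bases, GAAA) or a gamma-activated site core (TTCNNNGAA).
Psmb8: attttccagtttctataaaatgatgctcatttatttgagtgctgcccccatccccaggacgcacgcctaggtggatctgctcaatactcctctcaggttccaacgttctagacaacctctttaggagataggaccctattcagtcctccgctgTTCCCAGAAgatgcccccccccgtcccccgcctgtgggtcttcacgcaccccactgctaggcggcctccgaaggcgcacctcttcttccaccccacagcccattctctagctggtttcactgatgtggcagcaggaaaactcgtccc
Psmb9: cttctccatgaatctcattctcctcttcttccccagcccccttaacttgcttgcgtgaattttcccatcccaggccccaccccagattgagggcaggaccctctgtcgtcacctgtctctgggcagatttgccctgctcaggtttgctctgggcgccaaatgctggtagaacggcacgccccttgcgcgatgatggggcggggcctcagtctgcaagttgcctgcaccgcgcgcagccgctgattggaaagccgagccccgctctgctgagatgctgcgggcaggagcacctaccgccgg
Psme1: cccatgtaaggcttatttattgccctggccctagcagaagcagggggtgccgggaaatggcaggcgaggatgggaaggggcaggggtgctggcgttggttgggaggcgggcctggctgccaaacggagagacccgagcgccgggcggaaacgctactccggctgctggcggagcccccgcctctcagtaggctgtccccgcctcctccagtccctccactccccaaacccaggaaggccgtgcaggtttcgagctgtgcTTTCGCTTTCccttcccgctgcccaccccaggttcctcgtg
Psmb5: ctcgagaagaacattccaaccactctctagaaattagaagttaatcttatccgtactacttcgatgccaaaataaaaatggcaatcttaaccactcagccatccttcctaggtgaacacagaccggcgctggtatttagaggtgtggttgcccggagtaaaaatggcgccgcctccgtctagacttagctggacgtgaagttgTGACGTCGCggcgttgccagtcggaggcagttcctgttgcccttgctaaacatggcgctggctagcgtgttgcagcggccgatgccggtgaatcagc
Psmb6: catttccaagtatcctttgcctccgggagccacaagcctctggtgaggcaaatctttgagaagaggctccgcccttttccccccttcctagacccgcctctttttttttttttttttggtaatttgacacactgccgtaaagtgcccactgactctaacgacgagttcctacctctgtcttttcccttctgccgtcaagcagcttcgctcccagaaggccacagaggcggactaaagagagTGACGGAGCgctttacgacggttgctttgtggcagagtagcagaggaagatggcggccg

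The Psmb8 window held a gamma-activated site core whose first base lay at -97 from the start site, and the Psme1 window an interferon-stimulated core at 10. The Psmb5 and Psmb6 windows held an antioxidant response element core at -47 and -9. None of the 3 motifs was found in the Psmb9 window shown, or in the windows of Psmb10 and Psme2. The windows of Psmb8, Psmb9 and Psme1 lay wholly inside the gene's span in the GENCODE annotation. That span starts further upstream (at 34197721, 34187764 and 55578123), and bases upstream of it were not searched for these 3 genes. An absence of a motif therefore holds for the window only. Promoters were listed for 41 of the 49 members, and the antioxidant core was present in 6 of these 41 (14.6%) against 14.0% of 27025 genes with a promoter in the RefSeq table. The interferon-stimulated core was present in 5 (12.2%) against 3.99%, and the gamma-activated core in 3 (7.32%) against 9.55%. Besides Psme1, the interferon-stimulated core was in Psmb3, Psmd4, Psmd9 and Psmg4. Besides Psmb8, the gamma-activated core was in Psmd2 and Psmg1. After TMM scaling none of these other carriers was called higher with obstruction in either genotype. A CCAAT box was present in 14 (34.1%) against 41.1%, and a kappaB core (GGG, any 5 bases, CC) in 23 (56.1%) against 53.5%. A match describes these letters only, and the motifs were chosen with the expression results known.

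The 3 catalytic subunits of the immunoproteasome were higher in the obstructed kidney in both genotypes, and no other class of subunits of the core or cap held a called increase. Psmb8, Psmb9 and Psmb10 rose 2.65-fold to 3.48-fold in wild type and 1.77-fold to 2.67-fold in knockout, on the scale of log2(scaled CPM + 0.5). Among all tested genes, 24.5% were called higher in wild type and 29.4% in knockout. The median log2 fold change of the 3 genes was 1.64 in wild type and 1.22 in knockout, against 0.04 and 0.07 over all tested genes.

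Psmb8, which encodes the chymotrypsin-like subunit beta5i, lay at 7.02 and 8.40 scaled CPM in the wild-type day 0 kidneys and at 29.3, 25.2 and 29.6 at day 5. In knockout kidneys it lay at 12.1, 12.2, 9.07 and 8.39 at day 0 and at 23.1, 35.3 and 27.8 at day 5. Every day 5 library was above every day 0 library, whatever the genotype. Its log2 fold change was 1.80 ± 0.20 (SE; limma adjusted p = 1.06e-05) in wild type and 1.42 ± 0.16 (limma adjusted p = 1.29e-05) in knockout. These levels rest on 116 to 195 reads per library at day 0 and 501 to 716 at day 5, the lowest read numbers of the catalytic genes together with Psmb9. In the annotation, 14.7% of the Psmb8 exon bases overlap the gene Gm20496, and the strand setting of the counting is not given in the sources used here.

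Psmb9 encodes beta1i, the immune counterpart of the caspase-like subunit. It lay at 9.62 and 9.73 scaled CPM in wild-type kidneys at day 0 and at 25.8, 25.4 and 28.3 at day 5. In knockout kidneys the values were 18.6, 11.7, 9.85 and 9.94 at day 0 and 19.001, 23.8 and 22.7 at day 5. Knockout day 0 replicate 1 thus stood close to the lowest obstructed knockout kidney, and the 2 groups did not overlap. Psmb9 rose on the log2 scale by 1.41 ± 0.22 in wild type (limma adjusted p = 0.000179) and 0.82 ± 0.18 in knockout (limma adjusted p = 0.00211). Of its exon bases, 5.79% overlap Tap1, the neighbouring transporter gene of the class I pathway.

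Psmb10 encodes beta2i, the immune counterpart of the trypsin-like subunit, and was the most abundant of the 3 immune genes per length. It lay at 18.9 and 20.5 scaled CPM at day 0 in wild type and at 59.8, 58.5 and 69.7 at day 5. The knockout kidneys had 29.2, 23.4, 21.9 and 21.4 at day 0, and 49.6, 65.0 and 54.2 at day 5. No day 0 library reached the lowest day 5 library. Psmb10 rose on the log2 scale by 1.64 ± 0.15 in wild type (limma adjusted p = 2.02e-06) and 1.22 ± 0.12 in knockout (limma adjusted p = 3.60e-06). Psmb10 shares no stretch of a read's length, 50 bases, with another annotated transcript.

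**Figure D1:**
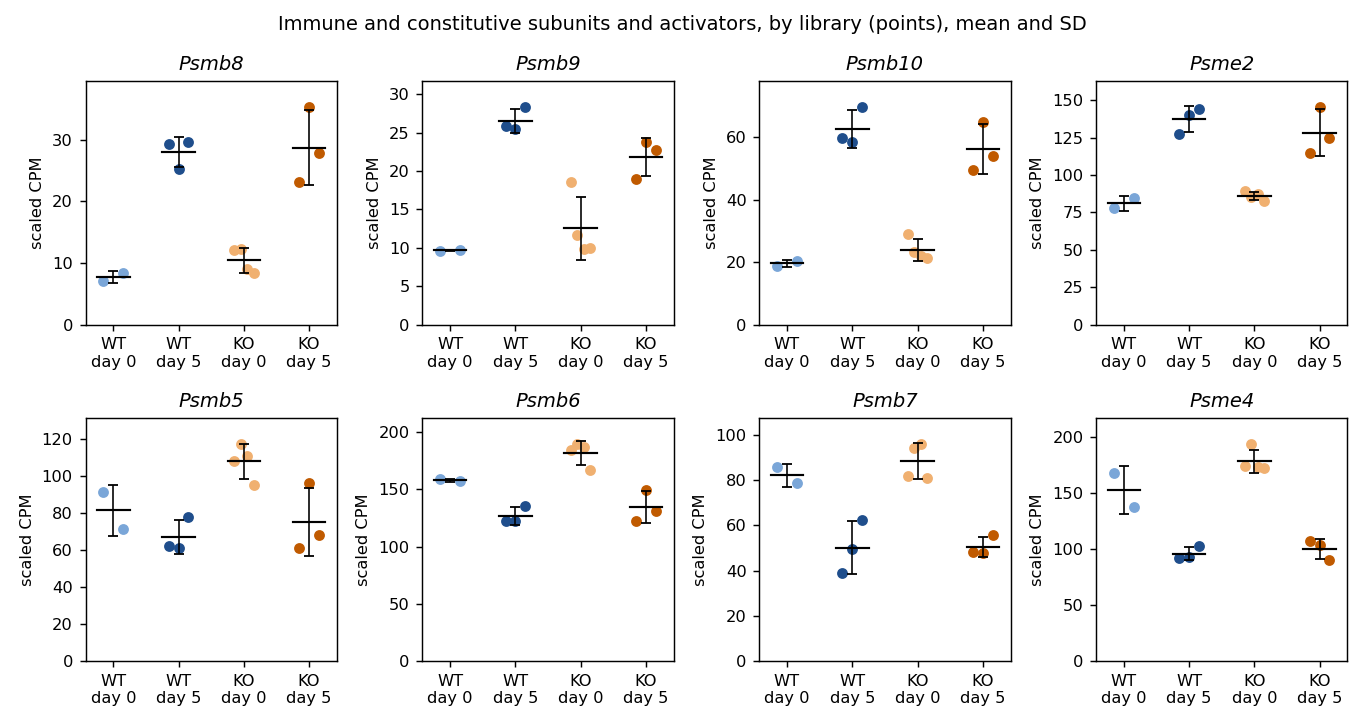
Scaled CPM of 8 members in each of the 12 libraries (points) by group, with the group mean and SD (bars), each axis starting at 0. Psmb8, Psmb9, Psmb10 and Psme2 are higher at day 5 in both genotypes without overlap, and Psmb6, Psmb7 and Psme4 are lower without overlap, whereas Psmb5 overlaps. With no scaling between libraries, Psmb5 in wild type and Psmb6 in both genotypes change sign.

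The constitutive catalytic subunits did not rise with the immune ones. Psmb7 and Psmb6 fell in both genotypes and Psmb5 fell in knockout, after TMM scaling. Among all tested genes, 22.6% were called lower in wild type and 25.4% in knockout. Without scaling between libraries, Psmb7 kept its negative sign in both genotypes and Psmb5 kept it in knockout (-0.09). In wild type Psmb5 (0.14) and Psmb6 (0.10), and in knockout Psmb6 (0.01), then had positive log2 fold changes.

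Psmb7, the trypsin-like subunit beta2, lay at 85.8 and 78.6 scaled CPM in wild-type kidneys at day 0 and at 39.0, 49.4 and 62.2 at day 5. In knockout kidneys it lay at 82.0, 94.3, 96.0 and 81.0 at day 0 and at 48.2, 47.8 and 55.7 at day 5. All obstructed kidneys lay below all day 0 kidneys. Obstruction gave a log2 fold change of -0.73 ± 0.16 in wild type (limma adjusted p = 0.00207) and -0.80 ± 0.13 in knockout (limma adjusted p = 0.000241). The wild-type call was lost in 2 of 25 alternatives, among them the one without scaling (-0.31). Psmb7 was thus at 0.602 and 0.575 of its day 0 level, the lowest fold of the constitutive core and cap in both genotypes. Of its exon bases, 11.8% overlap the neighbouring gene Nek6.

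Psmb6, the caspase-like subunit beta1, lay at 158 and 157 scaled CPM at day 0 in wild type and at 122, 122 and 135 at day 5. Knockout kidneys had between 166 and 189 at day 0 in all 4 and 122, 149 and 131 at day 5. The groups did not overlap in either genotype. The log2 fold change was -0.32 ± 0.10 in wild type (limma adjusted p = 0.0162) and -0.44 ± 0.08 in knockout (limma adjusted p = 0.000544). The wild-type call of Psmb6 was lost in 5 of 25 alternatives, and in 1 more, without scaling, its sign turned. Among the 5 were those without either wild-type day 0 kidney (-0.31 and -0.33) and without wild-type day 5 replicate 1 or 2 (-0.29 for each).

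Psmb5, the chymotrypsin-like subunit beta5, varied more among libraries. It lay at 91.2 and 71.6 scaled CPM at day 0 and at 62.1, 61.3 and 77.7 at day 5 in wild type, where the groups overlapped and the log2 fold change of -0.28 ± 0.18 was not called (limma adjusted p = 0.224). In knockout it lay at 108, 117, 111 and 95.0 at day 0 and at 61.4, 96.0 and 68.2 at day 5. Knockout day 5 replicate 2, the group's library with Y-linked transcripts, reached the day 0 range. The change in knockout was -0.54 ± 0.15 (limma adjusted p = 0.00790), and its call was lost in 2 of 24 alternatives, among them the one without scaling. Psmb5 shares 54.1% of its 50-base stretches with the copies Gm3375 and Psmb5-ps and with Mir686, so its reads may be split among them.

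A ratio of an immune subunit to its constitutive counterpart within a library does not depend on the scaling between libraries. All 3 ratios rose with obstruction in both genotypes. In wild type the Psmb8 to Psmb5 log2 ratio (CPM + 0.5) was -3.60 and -3.01 at day 0 and -1.07, -1.27 and -1.38 at day 5. In knockout it was -3.10, -3.20, -3.53 and -3.41 at day 0 and -1.39, -1.43 and -1.28 at day 5. Every obstructed kidney lay above every day 0 kidney by more than 1 log2 unit. Over both genotypes the ratio rose by 2.002 on the log2 scale, a 4.01-fold change.

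The Psmb9 to Psmb6 log2 ratio moved less. It was -3.96 and -3.93 at day 0 and -2.22, -2.25 and -2.24 at day 5 in wild type, and -3.27, -3.95, -4.16 and -3.99 at day 0 and -2.66, -2.63 and -2.51 at day 5 in knockout. Knockout day 0 replicate 1 was the highest of its group here also, though the check of single distant values given below did not flag it. Over both genotypes the ratio rose by 1.48 on the log2 scale, a 2.79-fold change.

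The Psmb10 to Psmb7 ratio combined the rise of beta2i with the fall of beta2. It was -2.15 and -1.91 at day 0 and 0.61, 0.24 and 0.16 at day 5 in wild type, and -1.47, -1.98, -2.10 and -1.89 at day 0 and 0.04, 0.44 and -0.04 at day 5 in knockout. In 5 of the 6 obstructed kidneys the immune subunit had more reads than the constitutive one. Over both genotypes the ratio rose by 2.19 on the log2 scale, a 4.56-fold change. For each of the 3 pairs the exact two-sided permutation test, with day labels permuted within genotype, gave p = 0.00286, the smallest it allows, and 0.00286 after adjustment over the 3 pairs. Within wild type alone the design allows no p under 0.1, and each pair gave that value in the exact permutation test. Within knockout the exact permutation p was 0.0286 for Psmb8 to Psmb5 and for Psmb10 to Psmb7 and 0.0571 for Psmb9 to Psmb6, against a smallest possible 0.0286.

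**Figure D2:**
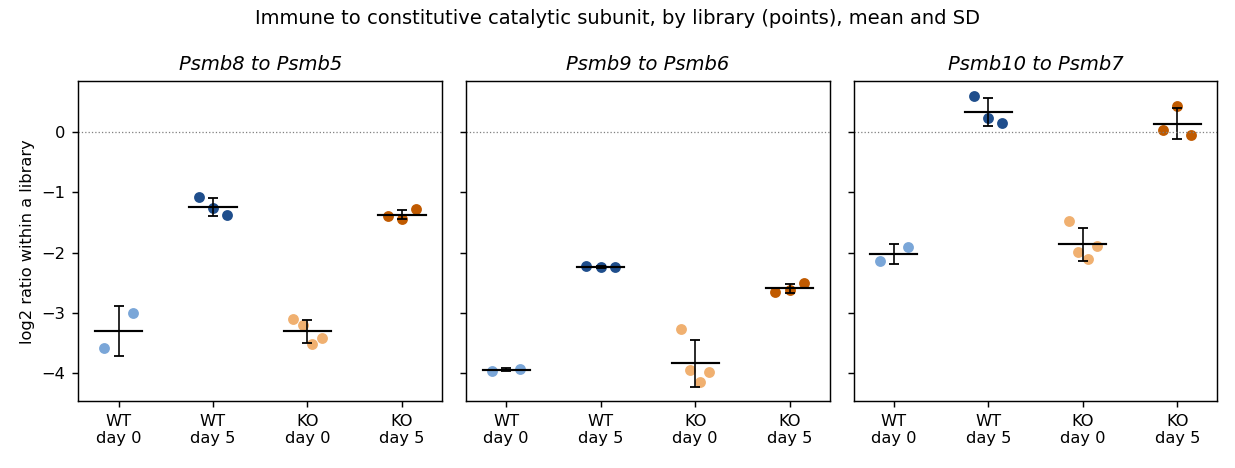
Log2 ratio of each immune catalytic subunit to its constitutive counterpart within each of the 12 libraries (points), with group mean and SD (bars). The dotted line marks equal CPM. Every day 5 library lies above every day 0 library in all 3 pairs, and only Psmb10 to Psmb7 reaches the line.

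Expressed per kilobase of the principal annotated transcript, beta5i made up 5.08% ± 1.42 (SD, n = 2) of the beta5 and beta5i transcripts at day 0 in wild type and 18.9% ± 1.67 (SD, n = 3) at day 5. In knockout the share was 5.05% ± 0.683 (SD, n = 4) and 17.5% ± 0.793 (SD, n = 3). The share of beta1i rose from 3.50% to 11.0% in wild type and from 3.89% to 8.76% in knockout. That of beta2i rose from 17.6% to 52.9% and from 19.4% to 49.5%. The constitutive transcript thus remained the more abundant one for beta5 and beta1 at day 5, and both forms were near parity for beta2. Psmb5 shares 54.1% of its 50-base stretches with other transcripts, against 11.9% for Psmb8. Any reads of Psmb5 lost to those copies would raise the beta5i share. These shares are of transcripts and say nothing of assembled particles.

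Leukocyte markers rose beside the immune subunits. All 7 of a leukocyte list (Ptprc, the leukocyte common antigen, among them) were called higher in both genotypes, and their summed level went from between 80.3 and 83.4 scaled CPM to between 336 and 446 in wild type and from between 86.4 and 120 to between 352 and 380 in knockout. All 10 macrophage and monocyte markers were called higher in both genotypes, as were 9 of 10 T and NK cell markers in wild type and 8 of 10 in knockout (7 of 10 in each by edgeR and by DESeq2). Of 3 tested neutrophil markers, 3 rose in wild type and 2 in knockout (3 in knockout by edgeR and by DESeq2), while Mpo was at 0 in every day 0 library. Of 5 tested B and plasma cell markers, 2 rose in wild type (40%) and 1 in knockout (20%). The shares of all tested genes were 24.5% and 29.4% called higher and 22.6% and 25.4% called lower, in wild type and knockout. Of 9 kidney tubule and glomerulus markers, 6 in wild type and 7 in knockout were called lower (7 and 4 by edgeR), and none was called higher by limma, edgeR or DESeq2 or reached an unadjusted p under 0.05 in that direction. The macrophage markers' median log2 fold change was 2.95 in wild type and 2.56 in knockout, above that of the immune subunits. In whole kidney RNA a change in the number of cells of a type and a change in RNA per cell cannot be told apart, and the part of infiltrating cells in the immune subunits' rise was not tested.

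The genes of PA28, a ring that opens the core and is induced by interferon gamma, rose together with the immune catalytic subunits but by less. Psme1 (PA28 alpha) lay at 74.1 and 70.05 scaled CPM at day 0 and at 117, 100.2 and 121 at day 5 in wild type. In knockout it lay at 77.5, 69.3, 72.6 and 67.8 at day 0 and at 105, 130 and 105 at day 5. Both genotypes separated without overlap and by nearly the same factor. Psme1 rose on the log2 scale by 0.64 ± 0.11 in wild type (limma adjusted p = 0.000505) and 0.65 ± 0.09 in knockout (limma adjusted p = 8.40e-05).

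Psme2 (PA28 beta), which forms the ring with Psme1, lay at 77.6 and 84.3 scaled CPM at day 0 and at 127, 140 and 144 at day 5 in wild type. Levels in knockout were between 82.4 and 89.1 at day 0 and 115, 145 and 125 at day 5. The groups did not overlap. Psme2 rose on the log2 scale by 0.76 ± 0.10 in wild type (limma adjusted p = 5.07e-05) and 0.57 ± 0.08 in knockout (limma adjusted p = 9.79e-05). Psme2b is a near copy of Psme2 and shares 69.3% of its 50-base stretches with Psme2 and Gm7928, so its 39 to 165 reads per library cannot be assigned to it with certainty. Its log2 fold change was 1.13 ± 0.23 in wild type (limma adjusted p = 0.00140) and 0.40 ± 0.19 in knockout (limma adjusted p = 0.0962), where it was called without knockout day 5 replicate 1 (0.60).

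The activators that interferon does not induce went the other way or showed little difference. Psme4, which encodes PA200, lay at 168 and 138 scaled CPM at day 0 and at 91.6, 93.3 and 102 at day 5 in wild type. The knockout kidneys had 174, 194, 173 and 173 at day 0 and 107, 103 and 89.9 at day 5. The groups were far apart in both genotypes. The log2 fold change was -0.67 ± 0.11 in wild type (limma adjusted p = 0.000236) and -0.83 ± 0.09 in knockout (limma adjusted p = 6.47e-06), and it remained negative without scaling between libraries (-0.24 and -0.38). Psme3 (PA28 gamma, the nuclear relative of PA28 alpha and beta) had log2 fold changes of -0.13 ± 0.08 in wild type (limma adjusted p = 0.222) and -0.20 ± 0.07 in knockout (limma adjusted p = 0.0290), which became 0.29 and 0.25 without scaling. Psmf1 (PI31) had -0.09 ± 0.11 in wild type (limma adjusted p = 0.522) and -0.30 ± 0.09 in knockout (limma adjusted p = 0.0143), which became 0.32 and 0.14. Both knockout calls ended with the sex-chromosome pattern as a covariate (-0.16 for Psme3 and -0.25 for Psmf1) and without knockout day 5 replicate 1 (-0.14 and -0.25). In all, of 24 alternatives, the Psme3 call was lost in 7 and the Psmf1 call in 3, and for each gene 1 more, without scaling, turned the sign.

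The log2 fold changes of the 31 subunits of the constitutive core and the 19S cap had a small spread and lay slightly below those of other genes. After TMM scaling none was called higher in either genotype by limma, edgeR or DESeq2, nor reached an unadjusted p under 0.05 in that direction with any of them, and 11 were called lower in wild type and 24 in knockout by each tool. These are 35.5% and 77.4% of the 31, against 22.6% and 25.4% of all tested genes called lower by limma. Their median log2 fold change was -0.21 in wild type and -0.37 in knockout, with a SD over the 31 genes of 0.18 and 0.17, against 0.93 and 0.88 over all tested genes. All tested genes include genes with few reads, and no set of matched level was compared. The smaller SD therefore does not show that the 31 moved together. The sign depends on the scaling: without it, 12 of the 31 were called higher and 0 lower in wild type and 8 higher and 1 lower in knockout, with medians of 0.21 and 0.08. In that setting the median of all tested genes was also shifted, to 0.40 and 0.45, and the 31 genes remained below it. Among called genes the share that was higher went from 52.1% to 81.1% in wild type and from 53.7% to 82.3% in knockout. Without scaling, 10561 of 18093 tested genes were called in wild type and 12293 in knockout. A larger share of all tested genes than of the 31 was thus called higher in each genotype. The 14 core genes (medians -0.22 and -0.38) and the 17 cap genes (-0.19 and -0.36) had similar medians.

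The wild-type count of lower subunits rests on few libraries. Without wild-type day 0 replicate 1, 3 of the 31 remained called lower, and without wild-type day 5 replicate 1, 5 did. Without wild-type day 5 replicate 2 there were 7. Among the libraries with Y-linked transcripts alone, 3 were called lower in wild type and 7 in knockout, and 1 was called higher in knockout. The median remained negative in each of these (-0.13, -0.18, -0.20, and -0.23 and -0.20). With the sex-chromosome pattern as a covariate the medians were -0.17 and -0.26, with 12 and 20 called lower and 1 called higher in each genotype.

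**Figure D3:**
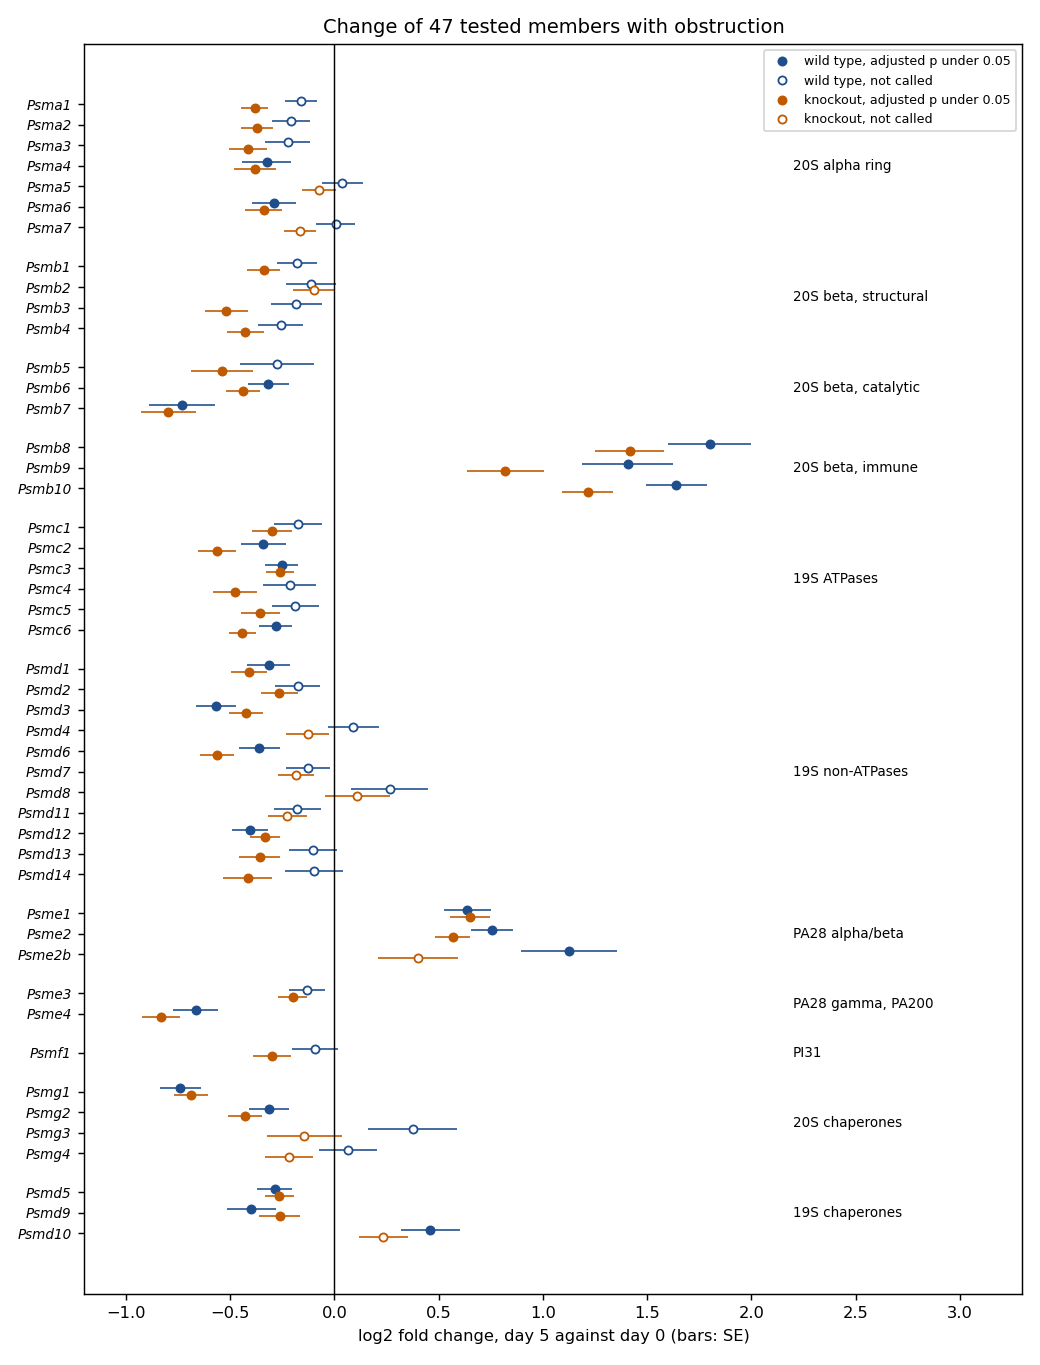
Log2 fold change, day 5 against day 0, of the 47 tested members by class in wild type (blue) and knockout (orange), with SE bars; filled points were called by limma and open points were not. Immune catalytic and PA28 genes lie to the right of 0 and most constitutive core and cap genes to the left after TMM scaling; without scaling the median of the 31 core and cap genes lies to the right of 0.

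In the alpha ring, which gates the core, 2 of 7 genes were called lower in wild type (28.6%, near the 22.6% of all tested genes) and 5 in knockout (71.4%, against 25.4%). Psma4 lay at 145 and 134 scaled CPM at day 0 and at 106, 113 and 114 at day 5 in wild type, and at 144, 161, 161 and 159 at day 0 and 109, 146 and 108 at day 5 in knockout. Knockout day 5 replicate 2 lay within the day 0 range. Its log2 fold change was -0.33 ± 0.12 in wild type (limma adjusted p = 0.0392) and -0.38 ± 0.10 in knockout (limma adjusted p = 0.00593). The wild-type call of Psma4 was lost in 12 of 25 alternatives, among them each one without a wild-type library, and 1 more turned the sign. At the other end of the ring, Psma5 had 0.04 ± 0.10 and -0.07 ± 0.08 (limma adjusted p = 0.788 and 0.462). Psma5 shares 50.0% of its 50-base stretches with other transcripts.

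Of the 4 structural beta subunits, which have no catalytic site, none was called in wild type by limma, edgeR or DESeq2 (1 was lower at an unadjusted p under 0.05 with each), and 3 were called lower in knockout (75.0%, against 25.4% of all tested genes). Psmb3 lay at 130 and 112 scaled CPM at day 0 and at 102, 108 and 111 at day 5 in wild type, where its change was not called (-0.18 ± 0.12, limma adjusted p = 0.242). In knockout it lay at 169, 163, 163 and 142 at day 0 and at 109, 130 and 96.2 at day 5, a log2 fold change of -0.52 ± 0.10 (limma adjusted p = 0.000869). That call was lost in 2 of 24 alternatives, among them the one without scaling (-0.07). The day 0 level was higher in the knockout than in the wild-type kidneys, and the day 5 levels overlapped. Psmb2 had -0.11 ± 0.12 and -0.10 ± 0.10 (limma adjusted p = 0.468 and 0.435).

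In the 19S cap, 3 of the 6 ATPases, which unfold the substrate, were called lower in wild type (50.0%, against 22.6% of all tested genes) and all 6 in knockout (against 25.4%). Psmc2 lay at 113 and 102 scaled CPM at day 0 and at 77.5, 88.3 and 88.2 at day 5 in wild type. Levels in knockout were between 113 and 135 at day 0 and 78.2, 95.2 and 82.4 at day 5. Neither genotype overlapped. Its log2 fold change was -0.34 ± 0.11 in wild type (limma adjusted p = 0.0205) and -0.56 ± 0.09 in knockout (limma adjusted p = 0.000198). The wild-type call of Psmc2 was lost in 4 of 25 alternatives, and in 1 more, without scaling, its sign turned. Among the 4 were those without wild-type day 0 replicate 1 or day 5 replicate 1 (-0.28 for each). The knockout call ended without scaling (-0.11). The ATPase with the smallest mean difference, Psmc1, had -0.17 ± 0.11 and -0.30 ± 0.10 (limma adjusted p = 0.234 and 0.0176). Its knockout call was lost in 4 of 24 alternatives, among them those without knockout day 5 replicate 1 (-0.27) or replicate 3 (-0.24), and in 1 more, without scaling, its sign turned.

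Of the 11 non-ATPase subunits, 4 were called lower in wild type (36.4%, against 22.6% of all tested genes) and 7 in knockout (63.6%, against 25.4%). Psmd3, a scaffold subunit of the lid, lay at 188 and 234 scaled CPM at day 0 and at 147, 141 and 136 at day 5 in wild type, and between 196 and 214 at day 0 and at 144, 156 and 156 at day 5 in knockout. The groups did not overlap. The log2 fold change was -0.57 ± 0.09 in wild type (limma adjusted p = 0.000309) and -0.42 ± 0.08 in knockout (limma adjusted p = 0.000597), and without scaling it was no longer called in wild type (-0.15). Psmd8, another lid subunit, lay at 148 and 127 at day 0 and at 155, 156 and 185 at day 5 in wild type. Knockout values were between 140 and 166 at day 0 and 138, 233 and 144 at day 5. The high value is again knockout day 5 replicate 2. Psmd8 had 0.27 ± 0.18 and 0.11 ± 0.15 (limma adjusted p = 0.262 and 0.571), and without that library the knockout value was -0.13. With the sex-chromosome pattern as a covariate both were called, at 0.33 and 0.38.

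The assembly chaperones did not move as a group. Of the 4 core chaperones, 2 were called lower in both genotypes (50%, against 22.6% and 25.4% of all tested genes). Psmg1, which pairs with Psmg2 to start the alpha ring, lay at 38.7 and 38.8 scaled CPM at day 0 and at 22.4, 24.1 and 22.6 at day 5 in wild type. In knockout it lay at 42.0, 40.2, 47.3 and 37.7 at day 0 and at 25.8, 26.1 and 25.04 at day 5. The groups were widely separated and the replicates close together. Psmg1 had a log2 fold change of -0.74 ± 0.10 in wild type (limma adjusted p = 5.62e-05) and -0.69 ± 0.08 in knockout (limma adjusted p = 1.75e-05), and it remained negative without scaling (-0.32 and -0.24). Psmg3, which pairs with Psmg4, had 0.37 ± 0.21 and -0.15 ± 0.18 (limma adjusted p = 0.173 and 0.515), at a low level between 4.17 and 9.11 scaled CPM.

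Of the 3 cap chaperones, Psmd10 (gankyrin) was the only one called higher in wild type, and Psmd5 and Psmd9 were called lower in both genotypes. That is 33.3% higher in wild type and 66.7% lower in each genotype. Over all tested genes the shares were 24.5% higher in wild type and 22.6% and 25.4% lower. Psmd10 lay at 26.4 and 25.4 scaled CPM at day 0 and at 33.0, 34.2 and 40.7 at day 5 in wild type, a log2 fold change of 0.46 ± 0.14 (limma adjusted p = 0.0164). In knockout it lay between 28.5 and 30.4 at day 0 and at 32.1, 43.1 and 29.8 at day 5, a log2 fold change of 0.23 ± 0.12 (limma adjusted p = 0.109). The knockout groups overlapped. The wild-type call of Psmd10 ended without either wild-type day 0 kidney (0.48 and 0.43) or without wild-type day 5 replicate 3 (0.37), and in knockout the gene was called with the sex-chromosome pattern as a covariate (0.42). Psmd9 (p27) had -0.40 ± 0.12 and -0.26 ± 0.10 (limma adjusted p = 0.0133 and 0.0369), and 25.5% of its exon bases overlap Gm26745. The wild-type call of Psmd9 was lost in 2 of 25 alternatives, among them the one without wild-type day 0 replicate 2 (-0.20). The knockout call was lost in 5 of 24, among them those without knockout day 0 replicate 1 or 2 or day 5 replicate 1 or 2 (-0.23 to -0.26). In each genotype 1 more, without scaling, turned the sign.

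Over all 47 tested members, 7 were called higher and 16 lower in wild type, and 5 higher and 31 lower in knockout. In either direction, 47.1% of all tested genes were called in wild type and 54.8% in knockout. The 7 were the 3 immune catalytic genes, Psme1, Psme2, Psme2b and Psmd10, and the 5 were the first 5 of these. Of the members called lower, 16 were called in both genotypes. Libraries did not overlap for 9 members higher and 26 lower in wild type, where this was so for 34.4% and 30.7% of all tested genes, and for 5 higher and 28 lower in knockout, against 29.5% and 25.6%. The numbers of kidneys differ between the genotypes, so these counts do not compare them. Without scaling, 23 were called higher and 2 lower in wild type and 17 higher and 3 lower in knockout. In that setting 10561 of 18093 tested genes were called in wild type and 12293 in knockout, most of them higher. Without wild-type day 0 replicate 1, 7 members were called lower in wild type, and without wild-type day 5 replicate 1, 10 were.

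**Figure D4:**
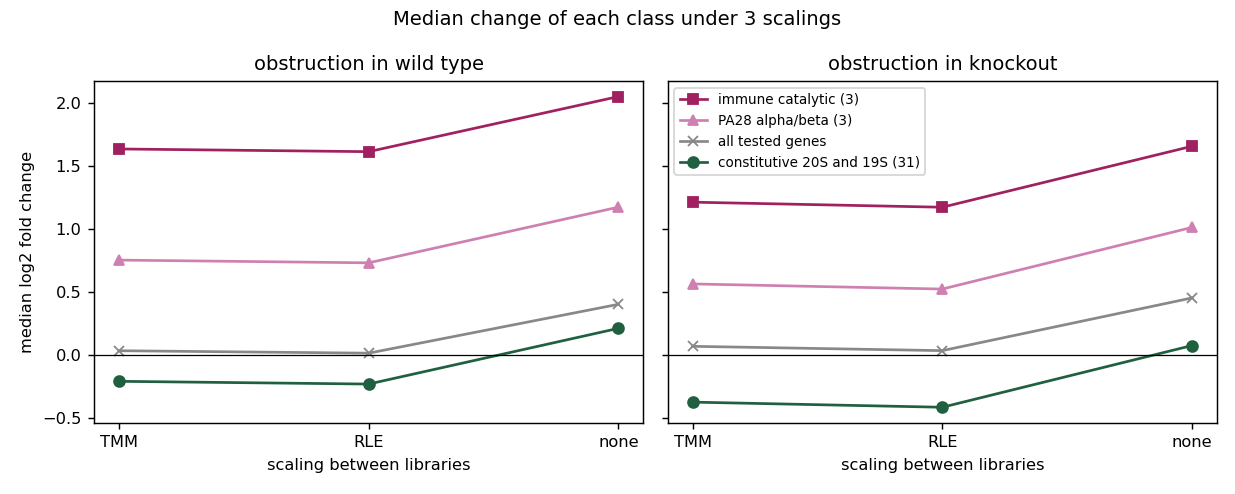
Median log2 fold change, day 5 against day 0, of the immune catalytic genes, the PA28 genes, the 31 constitutive core and cap genes and all tested genes under TMM factors, DESeq2-type RLE factors and no scaling. The immune and PA28 medians are above that of all tested genes and the core and cap median is below it in all 3 settings, while the core and cap median is negative with TMM and RLE and positive with no scaling.

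The members' share of all reads grew while the scaled level fell. Together they took 3802 ± 148 CPM (SD, n = 2) at day 0 and 4617 ± 216 (SD, n = 3) at day 5 in wild type, and 4084 ± 68.6 (SD, n = 4) and 4615 ± 394 (SD, n = 3) in knockout. In scaled CPM the sums were 4297 and 3891 in wild type and 4858 and 4015 in knockout. The 3 immune catalytic genes rose on either scale, from 32.9 to 139 CPM in wild type and from 39.5 to 123 CPM in knockout. The 3 constitutive catalytic genes were at 284 and 289 CPM in wild type and at 317 and 299 CPM in knockout. The immune genes thus accounted for part of the growth in reads, and the rest came from other members.

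Per kilobase of the principal transcript, in wild-type kidneys at day 0, Psmb6 was the most abundant member at 197 ± 1.54 scaled CPM per kilobase (SD, n = 2), followed by Psmb3 at 158 ± 16.5, Psmb4 at 155 ± 12.1 and Psma7 at 146 ± 7.96. The last 3 lay within their spread of each other. Psmb5 stood at 90.5 ± 15.5 and Psmb7 at 70.9 ± 4.39. The immune genes were near the bottom, with Psmb10 at 15.1 ± 0.865, Psmb9 at 7.16 ± 0.0559 and Psmb8 at 4.74 ± 0.599. At day 5 in wild type Psmb10 stood at 47.8 ± 4.67 against 43.3 ± 10.01 for Psmb7, which did not differ beyond their spread, while Psmb8 at 17.2 ± 1.49 remained below Psmb5 at 74.6 ± 10.3. Psme2 rose to 142 ± 9.003 per kilobase, the range of the most abundant core subunits.

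The remaining members, Psma8 and Psmb11, were too low to be tested. Psma8, the alpha subunit of testis proteasomes, had between 2 and 11 reads per library. Psmb11, the catalytic subunit of thymic cortical epithelium, had 0 reads in all 6 day 0 libraries and at most 3 in any day 5 library. A count of 0 allows up to 3 reads, which is 0.155 to 0.181 CPM in these libraries. Reads this few allow no comparison of groups.

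No member was called between genotypes at either day, or for the difference in response to obstruction, by limma, edgeR or DESeq2. Over all tested genes 0.0166% were called lower and 0% higher in knockout at day 0, 0% at day 5, and 0.00553% for the difference in response. DESeq2, on the recovered reads, called 370 genes at day 0, 51 at day 5 and 47 for the difference in response. At day 0, 18 of the 47 members had an unadjusted p under 0.05 in limma, against 14 in edgeR and 18 in DESeq2, both on the recovered reads, and the smallest limma adjusted p was 0.170, for Psmb3. At day 5 there was 1 member with each tool (smallest limma adjusted p = 0.845), and for the difference in response there were 3 with each (smallest limma adjusted p = 0.636). These values do not show that the genotypes act alike. The share of all tested genes with an unadjusted p under 0.05 was not counted. The member counts at that threshold are therefore no result about the members.

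At day 0, 30 of the 31 constitutive core and cap genes had a higher mean in knockout, with a median log2 difference of 0.17, while 8978 of 18093 tested genes were higher with a median of 0.00. For 23 of the 47 members, all higher, the 4 knockout libraries lay outside the range of the 2 wild-type libraries, against 12.9% of tested genes higher. At day 5 this was so for 3 members higher and 1 lower, against 5.72% and 4.21% of tested genes. Psmb3 differed by 0.39 ± 0.12 and Psmb5 by 0.41 ± 0.17 (limma adjusted p = 0.170 and 0.284). The comparison runs partly across the sex-chromosome pattern, since all 4 knockout libraries but only 1 of the 2 wild-type libraries held Y-linked transcripts. For the fits that follow, too, the share of all tested genes with an unadjusted p under 0.05 was not counted. With the sex-chromosome pattern as a covariate the median was 0.11 and 7 members had an unadjusted p under 0.05. Without the wild-type library that held Xist, replicate 2, 1 of 48 tested members did, and without replicate 1, 18 did; each of these fits assumes that the remaining wild-type library varies like the other groups. Leaving out a wild-type library also removes that kidney's own level together with its pattern. Genotype and this pattern cannot be fully told apart at day 0.

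The estimated rise of the immune subunits was smaller in knockout than in wild-type kidneys, and none of these differences was called. The difference in response was -0.38 ± 0.26 for Psmb8, -0.59 ± 0.28 for Psmb9 and -0.42 ± 0.19 for Psmb10 (limma adjusted p = 0.747, 0.670 and 0.651). For Psmb9 the knockout mean was higher by 0.31 ± 0.21 at day 0 and lower by 0.28 ± 0.20 at day 5 on the log2 scale (limma adjusted p = 0.514 and 0.9993), and at day 5 its 3 knockout libraries lay below the 3 wild-type libraries. The ratios of immune to constitutive subunits differed between genotypes by -0.07 for Psmb8 to Psmb5, -0.13 for Psmb9 to Psmb6 and -0.01 for Psmb10 to Psmb7 over both days. The exact two-sided permutation test gave p = 0.547, 0.473 and 0.950, and 0.820, 0.820 and 0.950 after adjustment over the 3 pairs. By day, the differences in the same order were -0.01, 0.11 and 0.17 at day 0 and -0.13, -0.36 and -0.19 at day 5. At day 5 the exact permutation p was 0.2, 0.1 and 0.4, where the design allows none under 0.1. A mean over both days can hide a difference whose sign changes between days.

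The class I pathway presents the peptides that the immunoproteasome makes. Of 12 tested genes of class I antigen presentation, 9 were called higher and 1 lower in each genotype (2 lower in knockout by DESeq2), which is 75.0% higher against 24.5% of all tested genes in wild type and 29.4% in knockout, with median log2 fold changes of 1.17 and 0.89. B2m, the light chain of class I molecules, rose by 1.18 ± 0.13 in wild type and 1.09 ± 0.11 in knockout (limma adjusted p = 1.42e-05 and 4.25e-06). H2-K1, a class I heavy chain, rose by 1.42 ± 0.17 and 1.14 ± 0.14. Tap2, a chain of the peptide transporter, rose by 1.30 in both genotypes (SE 0.18 and 0.15). Tapbp, the bridge between transporter and class I molecule, rose by 1.16 ± 0.16 and 0.9992 ± 0.13.

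Of 22 genes of the interferon signal and its readouts, 21 were tested, since Ifng itself was too low. In wild type 14 were called higher by limma and 13 by edgeR and DESeq2, with 0 called lower by any of them (0 in limma and edgeR and 1 in DESeq2 at an unadjusted p under 0.05), and in knockout 13 higher and 1 lower. The higher genes are 66.7% and 61.9% of the list, against 24.5% and 29.4% of all tested genes. The list's median log2 fold changes were 0.91 and 0.78. Ifngr2 and Ifngr1, the chains of the interferon gamma receptor, rose by 1.65 ± 0.16 and 1.29 ± 0.18 in wild type and by 1.45 ± 0.13 and 1.43 ± 0.15 in knockout. Irf9, part of the factor that type I interferon activates, rose by 1.19 ± 0.12 and 1.08 ± 0.10, and Irf8, a factor of myeloid cells, by 1.60 ± 0.19 and 0.78 ± 0.16. The leukocyte markers given above moved with these lists, and their part in them was not tested.

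A further list held partners of the constitutive proteasome that lie outside the Psm families. Of 10 tested partner genes (Paaf1, the remaining gene of that list, was too low), none was called in wild type by limma or edgeR (1 higher and 2 lower at an unadjusted p under 0.05) and 1 was called lower by DESeq2. In knockout 5 were called lower (50.0%, against 25.4% of all tested genes), 4 of the 10 log2 fold changes were positive in wild type and 3 in knockout, and the medians were -0.12 and -0.19. Adrm1, the ubiquitin receptor of the cap, had -0.28 ± 0.13 and -0.46 ± 0.10 (limma adjusted p = 0.0869 and 0.00261), and the cap deubiquitinase Uchl5 -0.17 ± 0.11 and -0.29 ± 0.09 (limma adjusted p = 0.244 and 0.0215). Ecpas, an adaptor of the cap, had -0.22 ± 0.09 and -0.20 ± 0.07 (limma adjusted p = 0.0563 and 0.0366). Zfand5, a proteasome activator, had 0.32 ± 0.14 and 0.29 ± 0.12 and was not called (limma adjusted p = 0.0812 and 0.0548).

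In the NRF1 pathway, 1 of 11 genes was called higher and 2 lower in wild type, and 4 higher and 3 lower in knockout. The lower genes make up 18.2% and 27.3% of the list, near the 22.6% and 25.4% of all tested genes, and the higher ones 9.09% and 36.4%, against 24.5% and 29.4%. DESeq2 called 4 lower in wild type. Ngly1, the enzyme that removes sugars from NRF1 so that it can be activated, fell by 0.98 ± 0.08 in wild type and by 0.97 ± 0.07 in knockout on the log2 scale (limma adjusted p = 1.37e-06 and 2.23e-07). Its level went from 53.5 ± 1.68 (SD, n = 2) to 26.8 ± 1.11 scaled CPM (SD, n = 3) in wild type. Vcp, the ATPase that pulls NRF1 out of the membrane, changed by -0.37 ± 0.09 and -0.51 ± 0.08 (limma adjusted p = 0.00612 and 0.000155). Maff, a small MAF partner of the NRF factors, rose by 2.21 ± 0.26 and 2.72 ± 0.22 (limma adjusted p = 1.71e-05 and 4.67e-07), and the ubiquitin ligase Syvn1 had -0.31 ± 0.13 and 0.02 ± 0.11 (limma adjusted p = 0.0606 and 0.877).

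Of 14 genes of ubiquitin supply and shuttling, 3 were called higher and 4 lower in wild type and 2 higher and 4 lower in knockout. These are 21.4% higher and 28.6% lower in wild type and 14.3% and 28.6% in knockout, close to the shares of all tested genes in wild type (24.5% and 22.6%) and, for lower genes, in knockout (25.4%, with 29.4% higher). The shuttle gene Ubqln1 was called lower (-0.54 ± 0.08 in wild type and -0.50 ± 0.07 in knockout), whereas Ubqln4 was called higher (0.28 ± 0.07 and 0.26 ± 0.06).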

How the data were processed

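RNA from left kidneys was sequenced in 12 libraries as 50-base reads from an mRNA library kit on an Illumina HiSeq system, per the labels' protocols. The submitters' processing notes name STAR, SAMtools, HTSeq and GRCm38.p6, without versions or roles. The authors deposited 1 table of 55471 genes that holds CPM: each library sums to 1000000, and 100% of 665652 values were whole numbers of reads within 0.001, so reads were recovered for the count tests; edgeR's test on them called 8460 genes for obstruction in wild type and 9832 in knockout, against 8527 and 9917 by limma. Genes kept by edgeR's filterByExpr (minimum count 10, minimum total 15) were tested with limma 3.58.1 (empirical Bayes with trend, R 4.3.3) on log2(CPM + 0.5), CPM being divided by TMM factors from edgeR 4.0.16, in 1 fit of all 12 libraries and 4 groups. Fold changes on this scale understate those of low genes.

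Ratios of the 3 catalytic pairs were tested by exact permutation within genotype or day. Alternatives were edgeR's quasi-likelihood test, DESeq2 1.42.0 and limma-voom on recovered reads, other scalings, pseudocounts and filters, the sex-chromosome pattern as a covariate, only the groups compared, and each library left out; restriction to libraries with Y-linked or with Xist transcripts was added after seeing the data. The library totals of 16567256 to 19398882 reads bound the precision of low genes, and sampling limits cover counting error only.

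The members, classes and gene lists were chosen with earlier results of these data known. Values per library are given for the catalytic, activator and PI31 genes, for the highest and lowest member of each other class by the mean of both obstruction log2 fold changes, and for members not tested; of each pathway list, up to 4 genes with the smallest adjusted p in wild type are named. Some results of 1 pathway list are not reported here. Gene coordinates, lengths, overlaps and shared 50-base stretches are from GENCODE M21 (GRCm38), and promoter sequences from RefSeq (GRCm38.p6).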

Additional observations from a re-analysis of the deposited data

Results flagged for a closer look

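The 4 knockout day 0 libraries are the only group large enough for a check of single distant values, and 29 sets of values were checked in it, of which chance would flag about 1 in 20. Psma4 lay at 144.36 scaled CPM in knockout day 0 replicate 1, apart from the other 3 libraries, with the gap taking 0.851 of the group's range. Psme4 lay at 193.61 scaled CPM in knockout day 0 replicate 2, above the other 3 libraries, with the gap taking 0.951 of the range. Both genes were called lower with obstruction in knockout with and without the library concerned.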

How the results depend on the processing

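The 3 immune catalytic genes, Psme1, Psme2, Psme4 and Psmg1 kept their direction and their call in both genotypes under every alternative run. The rise of the 3 ratios also kept its direction and its side of 0.05 (1.86 to 2.15 for Psmb8 to Psmb5, 1.42 to 1.57 for Psmb9 to Psmb6 and 2.11 to 2.25 for Psmb10 to Psmb7, leaving out each library). No scaling between libraries changed the most: 23 members were then called higher and 2 lower in wild type, and 17 higher and 3 lower in knockout. Of 18093 tested genes, 10561 were then called in wild type and 12293 in knockout, most of them higher. In wild type the log2 fold changes then became positive for Psma4 (0.10), Psmb2 (0.31), Psmb3 (0.24), Psmb5 (0.14), Psmb6 (0.10), Psmc1 (0.25), Psmc2 (0.079), Psmd9 (0.017), Psme3 (0.29) and Psmf1 (0.32). In knockout they became positive for Psma4 (0.069), Psma5 (0.37), Psmb2 (0.35), Psmb6 (0.012), Psmc1 (0.15), Psmd3 (0.026), Psmd9 (0.18), Psme3 (0.25), Psmf1 (0.14) and Psmg3 (0.27). The cause of the shift between scalings was not tested.

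Leaving out each library, members called lower ranged from 7 to 17 in wild type and from 25 to 34 in knockout, and members called higher from 6 to 7 and from 5 to 6. The genotype difference in log2 ratio ranged from -0.22 to 0.078 for Psmb8 to Psmb5, from -0.22 to -0.07 for Psmb9 to Psmb6 and from -0.087 to 0.055 for Psmb10 to Psmb7; adjusted for the sex-chromosome pattern it was 0.0055 for Psmb8 to Psmb5. The log2 fold change of Psmf1 in wild type ranged from -0.21 to 0.014 (the latter without wild-type day 0 replicate 1), that of Psma5 from -0.039 (without wild-type day 0 replicate 2) to 0.10, and that of Psmd8 in knockout from -0.13 (without knockout day 5 replicate 2) to 0.25. With the pattern as a covariate Psma5 and Psmb2 in knockout were 0.0076 and 0.017. Among libraries with Y-linked transcripts, members called lower were 5 in wild type and 10 in knockout, where Psma5 was 0.030 and Psmb2 0.17; among those with Xist, 8 were called lower in wild type, where Psmb2 was 0.0081 and Psmf1 0.046. With fewer libraries these fits have less power, and no knockout day 0 library held Xist. No paired analysis was possible because the labels give no replicate numbers. The replicate numbers used here count each group's libraries in the order of the numbers in their sample titles. Depth limits Psma8 and Psmb11, which had at most 11 and 3 reads per library.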
